A study of Mus musculus with 2 samples.

Results

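Oxidative phosphorylation genes encode the proteins that turn the energy of nutrients into ATP at the inner mitochondrial membrane. They were described here in single cells of the mouse hippocampus. The members were taken from the gene symbols: nuclear genes whose names begin with Nduf (followed by a, b, c, s or v), Cox4 to Cox8, Atp5, Uqcr or Uqcc, the succinate dehydrogenase genes Sdha, Sdhb, Sdhc and Sdhd, and the protein-coding genes of the mitochondrial genome. This rule found 109 of 31053 gene rows, of which 96 are nuclear and 13 are mitochondrial. The symbol Atp5o stands in 2 of these rows, and 1 of those had 0 UMIs. Names outside the rule, such as the gene of cytochrome c, are not members.

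The study holds 2 droplet single-cell libraries, 1 of Mr1+/+ and 1 of Mr1-/- mice. Mr1 encodes a protein that presents small metabolites to mucosal-associated invariant T cells. Mice of both genotypes were 7 months old and had received no treatment. Hippocampi were dissociated with a kit made for neurons, cells that excluded DAPI and took up the DNA dye Draq5 were sorted, and the libraries were made with a kit that reads the 5' end of transcripts. By its title the series is about non-neuron cells. The sources used here do not give the number of mice behind a library. A genotype is 1 library, so a difference between genotypes has neither a replicate check nor a p-value. Mouse, dissection, sort and library cannot be told apart from genotype. All intervals below are exact 95% intervals that cover counting error only. Values are given as Mr1+/+ first and Mr1-/- second.

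Complex I (NADH dehydrogenase) and complex II (succinate dehydrogenase) pass electrons from nutrients to ubiquinone. Complex III carries them on to cytochrome c, and complex IV (cytochrome c oxidase) hands them to oxygen. Complexes I, III and IV pump protons, and complex V (ATP synthase) makes ATP as the protons flow back. The mitochondrial genome encodes the catalytic core of complexes I, III and IV and part of the membrane motor of complex V, and the nucleus encodes all other subunits and the assembly factors. Some subunits of complex IV have a second, tissue-restricted form.

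The deposited tables held 6410 and 5347 cell barcodes with 23244575 and 18349132 UMIs (unique molecular identifiers, 1 for each captured transcript molecule), at a median of 3160 and 2935 UMIs per barcode. After removal of likely doublets and of cells over 10% mitochondrial UMIs, 5992 and 5107 cells with 21462453 and 17334982 UMIs remained. The 2 libraries shared 44 barcodes, 39 of them among the kept cells. Mr1 itself had 139 UMIs in Mr1+/+ and 2 in Mr1-/-. Cells were grouped into 24 clusters, which marker genes assigned to 10 classes. Comparisons were made for the 7 classes that reached 50 cells in both libraries: endothelial-like (1434 and 1558 cells), oligodendrocyte-like (1336 and 946), mural-like, meaning pericytes and vascular smooth muscle (965 and 971), astrocyte-like (956 and 477), microglia-like (653 and 747), neuron-like (275 and 167) and neuroblast-like (66 and 54). Oligodendrocyte precursor-like, ependymal-like and fibroblast-like cells were fewer and are given as values only. Every named class carried at least 8 of its markers except the neuron-like class, where 6 of 11 were detected. A class is a summed profile, and a gene's level is given as CPM, its UMIs per 1000000 UMIs of that class. The 5' kit gives 1 tag per molecule, so no division by length was made, and levels are compared for the same gene across classes.

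The sequences that the results below return to are printed first. The mitochondrial genes mt-Atp8 (chrM:7766-7969, plus strand, mm10) and mt-Atp6 (chrM:7927-8607, plus strand) encode the 2 mitochondrial subunits of ATP synthase. The genes are known to be carried on a shared transcript, and their spans overlap by 43 bases. The mt-Atp8 gene is shown with the bases it shares with mt-Atp6 in capitals, from the GENCODE M21 transcripts of mm10.
mt-Atp8: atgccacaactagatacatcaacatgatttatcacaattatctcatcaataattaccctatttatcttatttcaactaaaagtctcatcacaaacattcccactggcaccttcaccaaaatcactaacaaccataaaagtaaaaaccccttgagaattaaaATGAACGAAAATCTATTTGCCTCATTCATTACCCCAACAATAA
Promoter windows from 250 bases before to 50 bases after the start of transcription are shown for Atp5k, an ATP synthase subunit that was higher in Mr1-/- in every compared class, and for Ndufaf4, a complex I assembly factor that was lower in Mr1-/- astrocyte-like cells. Both come from RefSeq (GRCm38.p6). Capitals mark the letters searched for below, which are those of nuclear respiratory factor 1 (NRF1), a regulator of many respiratory genes, and of ETS family factors.
Atp5k, chr5:108434350-108434649, minus strand: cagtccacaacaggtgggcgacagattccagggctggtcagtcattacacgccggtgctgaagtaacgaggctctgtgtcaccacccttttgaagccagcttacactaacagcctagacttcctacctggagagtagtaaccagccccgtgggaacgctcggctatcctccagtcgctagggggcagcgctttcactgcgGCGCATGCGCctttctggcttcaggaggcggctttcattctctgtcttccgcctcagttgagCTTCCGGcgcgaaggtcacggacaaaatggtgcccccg
Ndufaf4, chr4:24897833-24898132, plus strand: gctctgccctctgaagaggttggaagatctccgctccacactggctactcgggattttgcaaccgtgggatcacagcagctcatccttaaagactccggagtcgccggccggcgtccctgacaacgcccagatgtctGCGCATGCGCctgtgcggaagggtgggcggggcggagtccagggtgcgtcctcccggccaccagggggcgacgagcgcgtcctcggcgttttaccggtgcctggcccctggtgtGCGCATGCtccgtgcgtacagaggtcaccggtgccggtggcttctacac
The letters GCGCATGC (NRF1; GCATGCGC on the other strand) stood in 12 of 82 promoter windows of nuclear members (14.6%), which represent 77 genes, and in 891 of 32851 windows of all genes (2.71%). The letters CCGGAAG (ETS; CTTCCGG on the other strand) stood in 18 of the 82 windows (22.0%) and in 2910 of all windows (8.86%). The Atp5k window held 2 NRF1 matches, which overlap as the 2 strands of 1 palindromic run, and 1 ETS match. In the Ndufaf4 window 3 NRF1 matches were found, of which 2 overlap in the same way. A match describes the letters and is not a measured binding site.

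The members took 5.78% and 5.85% of the UMIs of all kept cells. The cell classes differed far more than the genotypes did. Nuclear members were lowest in microglia-like cells, at 1.54% and 1.61% of UMIs, and highest in mural-like cells (4.21% and 4.27%) and neuron-like cells (3.97% and 4.28%). The highest class held 2.72 times the share of the lowest in Mr1+/+ and 2.65 times in Mr1-/-. Between them stood endothelial-like (2.64% and 2.78%), oligodendrocyte-like (2.88% and 2.94%), neuroblast-like (3.06% and 3.28%) and astrocyte-like cells (3.54% and 3.73%). The order of the 7 classes was the same in both libraries except that mural-like and neuron-like cells traded the top place.

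Mitochondrially encoded members followed another order. They made up 1.12% and 1.21% of UMIs in microglia-like cells and 3.81% and 4.08% in mural-like cells, a range of 3.40 and 3.38 times. Neuron-like cells stood second lowest, at 1.63% and 1.83%, although their nuclear share was at or near the top. Neuroblast-like cells followed at 2.39% and 2.60%, endothelial-like cells at 2.60% and 2.86%, oligodendrocyte-like cells at 3.44% and 3.74%, and astrocyte-like cells at 3.55% and 3.75%. The order was identical in both libraries. Per nuclear UMI, neuron-like cells carried the fewest mitochondrial UMIs (0.41 and 0.43) and oligodendrocyte-like cells the most (1.20 and 1.27). The mitochondrial share was also used to remove cells over 10%, so its level depends on that ceiling.

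**Figure D1:**
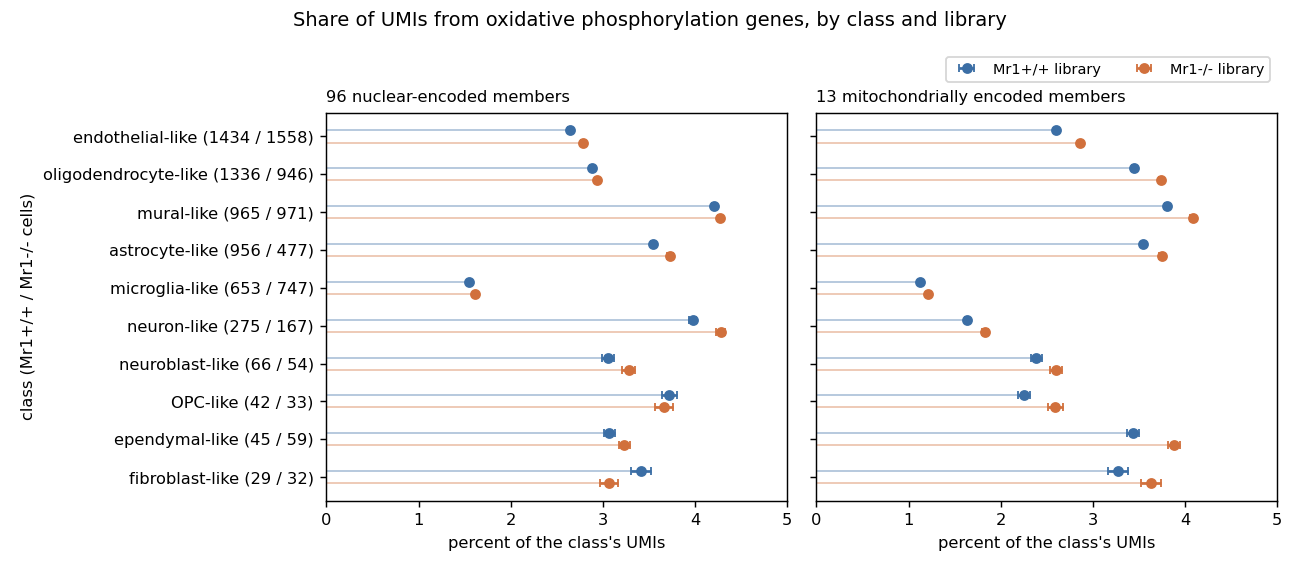
Share of UMIs (percent, horizontal axis) from nuclear members and from mitochondrially encoded members in the 10 named classes, 1 point per library with exact 95% counting intervals. Microglia-like cells are lowest in both panels, and neuron-like cells are near the top for nuclear members (3.97% and 4.28%) but second lowest for mitochondrial ones among the 7 compared classes (1.63% and 1.83%).

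Per-cell medians put the nuclear share lowest in microglia-like and highest in mural-like cells. After each cell was thinned to 1500 UMIs, the median nuclear share was 1.53% in microglia-like cells of both libraries and 4.13% and 4.20% in mural-like cells, with 3.70% and 3.73% in neuron-like cells. The unthinned medians were 1.51% and 1.58% in the former class and 4.08% and 4.06% in the latter. Thinning left out 29 and 12 shallower microglia-like cells and 160 and 197 mural-like cells. Mural-like cells were the most varied in their mitochondrial share: the quartiles of thinned Mr1+/+ cells were 1.93% and 4.80%, against 0.733% and 1.33% in microglia-like cells. Unlike in the summed profiles, mural-like cells were not the highest by the per-cell median of the mitochondrial share. That median, thinned, was 3.0% and 3.33% in mural-like, 3.33% and 3.67% in oligodendrocyte-like and 3.40% and 3.53% in astrocyte-like cells. Unthinned it was 2.98% and 3.16%, 3.41% and 3.67%, and 3.42% and 3.61% in the same classes.

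The spread among mural-like cells followed their clusters. Cells led by Tagln, Acta2 and Myh11, genes of the smooth muscle contractile apparatus, had 4.94% and 5.46% mitochondrial UMIs and 4.44% and 4.61% nuclear ones. Cells led by Kcnj8 and Vtn, which mark pericytes, had 2.14% and 2.48% mitochondrial UMIs and 3.86% and 3.84% nuclear ones. The remaining mural-like cluster, with Steap4 among its leading genes, had 2.32% and 2.31% mitochondrial UMIs. The mitochondrial shares of the contractile cluster thus stood above those of the other two in both libraries, and the mural-like average mixes them. The neuron-like class was also uneven, being mostly 1 cluster (258 and 160 cells) led by Reln, Snhg11 and Pcp4, with 1.51% and 1.71% mitochondrial and 3.85% and 4.30% nuclear UMIs. Its remaining 17 and 7 cells, led by Cck, Nrgn and Sncb, had 2.45% and 3.26% mitochondrial and 4.76% and 4.03% nuclear UMIs. The neuron-like values therefore describe that first cluster above all.

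Each of the 5 complexes was lowest in microglia-like cells among the 7 compared classes. The 36 nuclear subunits of complex I summed to 5216 and 5455 CPM there, against 8691 and 9265 in endothelial-like, 10355 and 10666 in oligodendrocyte-like, 12623 and 12879 in mural-like, and 14198 and 14937 CPM in neuron-like cells. The 11 common nuclear subunits of complex IV, including Ndufa4, ranged from 3359 and 3586 CPM in microglia-like to 10476 and 10459 CPM in mural-like and 10220 and 11185 CPM in neuron-like cells. Complex III nuclear subunits ran from 1449 and 1470 CPM to 3762 and 3738 CPM in the same classes. Complex II differed less, with 475 and 467 CPM in microglia-like against 813 and 859 CPM in mural-like cells. The nuclear subunits of complex V summed to 4329 and 4528 CPM in microglia-like, 10542 and 10568 CPM in mural-like and 9851 and 11062 CPM in neuron-like cells.

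Of the 92 nuclear members with at least 50 UMIs over the compared classes, 68 had their lowest mean level in microglia-like cells. The class with the highest level was the same in both libraries for most of them: neuron-like for 34, mural-like for 17, astrocyte-like for 10, endothelial-like and neuroblast-like for 4 each, and oligodendrocyte-like and microglia-like for 2 each. The members were thus rarely confined to 1 class. Only 4 of 105 measured members had a mean CPM in their highest class at least 2 times that in every other compared class, against 3959 of 13607 genes (29.1%). All 4, namely Ndufa4l2, Cox4i2, Cox6a2 and Cox6b2, are tissue forms of complex IV subunits. The clusters were built with the members among the genes, so the class pattern is a description. When the members were left out of the clustering, none of the main results moved beyond its counting interval, or by more than 1.5 times for counts.

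**Figure D2:**
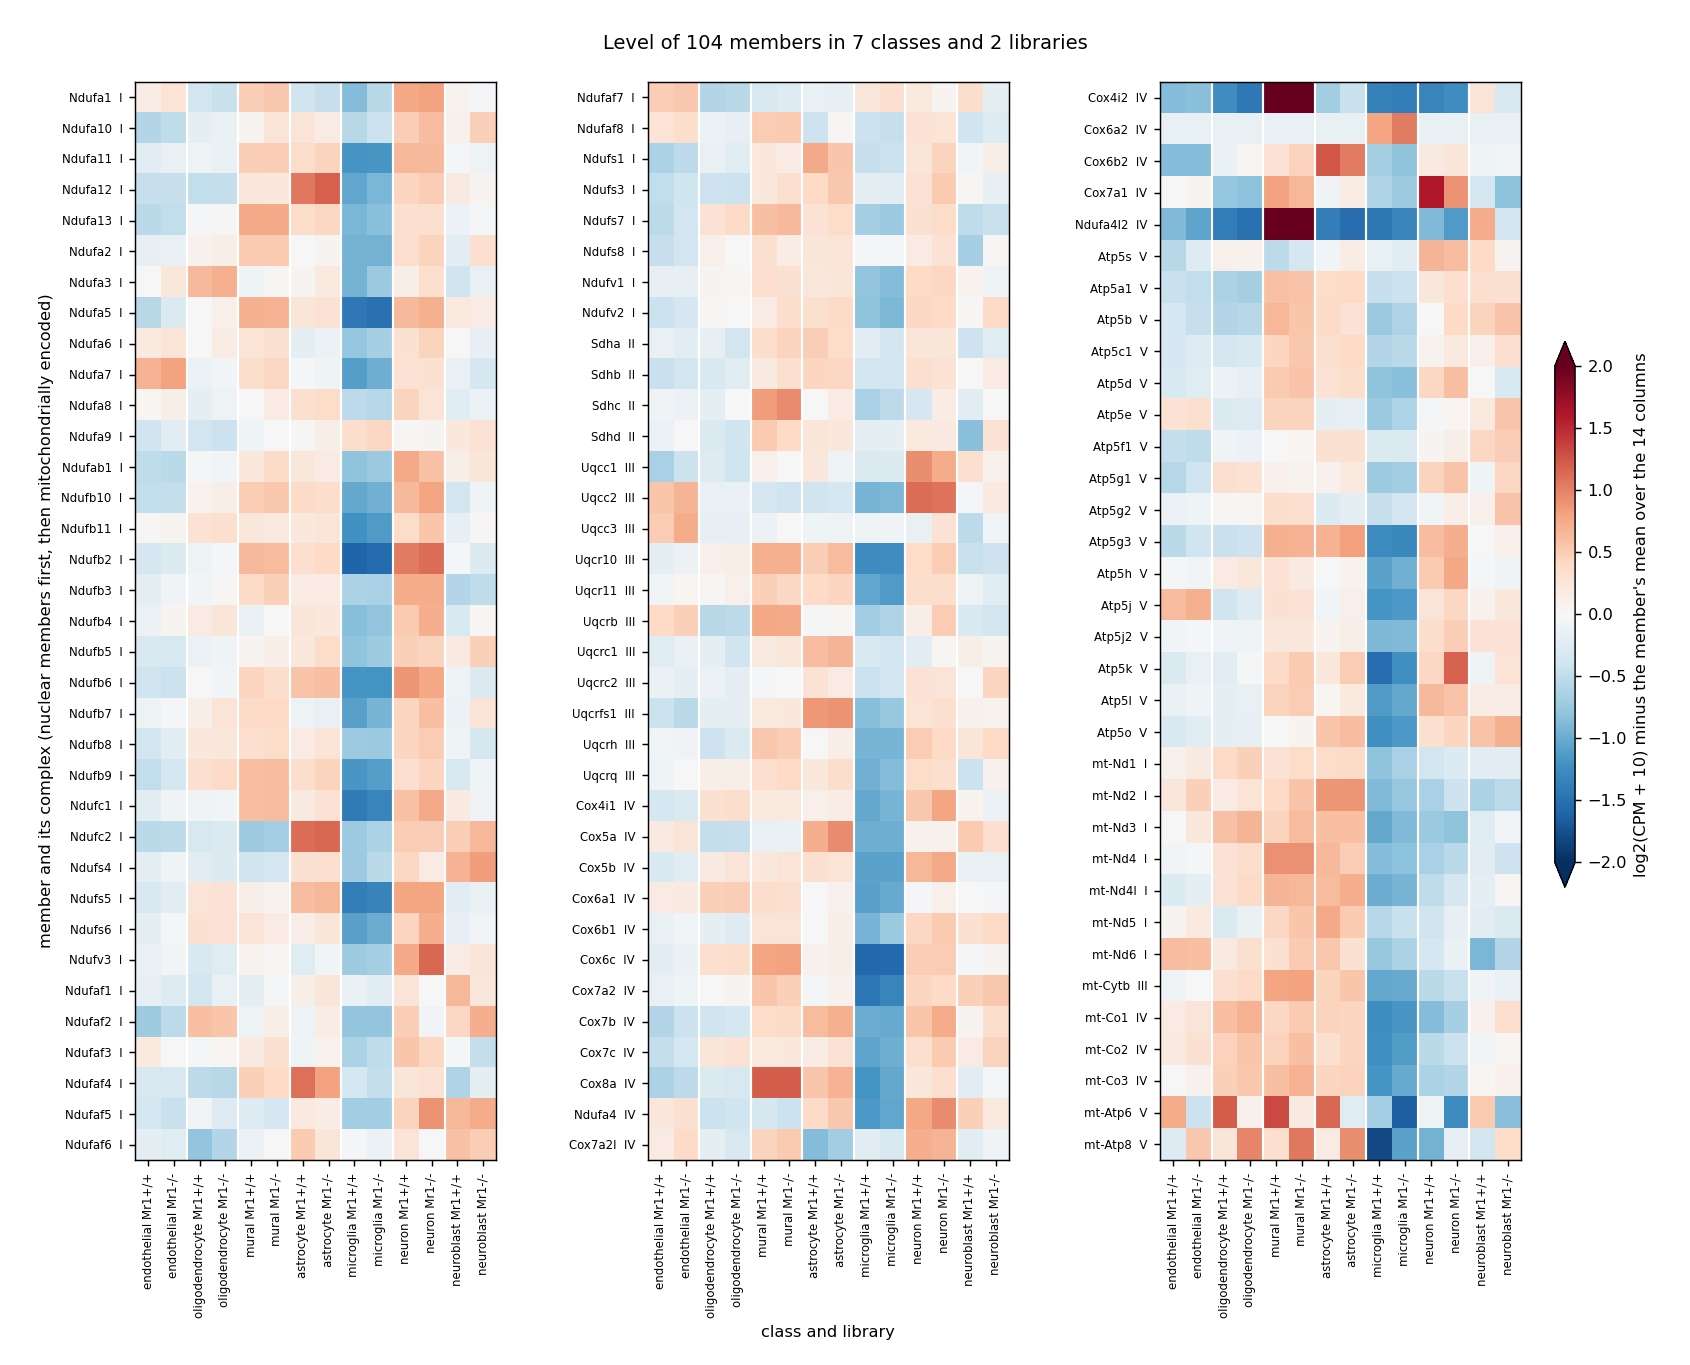
Level of 104 members (rows, grouped by complex) in 7 classes and 2 libraries (columns), as log2(CPM + 10) minus the member's mean over the 14 columns. The microglia-like columns are the lowest for most members, and Ndufa4l2 and Cox4i2 stand out in the mural-like columns.

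The members with the most UMIs in each complex, and others with a clear high class, show the pattern gene by gene. The latter were chosen after their values were seen. In complex I, Ndufc2, a membrane arm subunit, reached 965 and 982 CPM in astrocyte-like cells but 262 and 269 CPM in mural-like cells. Ndufa7, another accessory subunit, was highest in endothelial-like cells at 901 and 963 CPM. Ndufa3 was highest in oligodendrocyte-like cells (835 and 874 CPM). Ndufb2 stood at 593 and 625 CPM in neuron-like cells and at 86.0 and 90.7 CPM in microglia-like cells. Single subunits of 1 complex thus peaked in different classes. The complex I subunits are needed together in the assembled enzyme, and these transcript levels do not give the amount of enzyme.

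Complex II has 4 subunits, all nuclear. Sdha, the flavoprotein, and Sdhb, the iron-sulphur protein, form the part that oxidises succinate. Sdha was at 222 and 204 CPM and Sdhb at 367 and 361 CPM in astrocyte-like cells. In microglia-like cells Sdha stood at 131 and 117 CPM and Sdhb at 205 and 203 CPM. The membrane anchors Sdhc and Sdhd were highest in mural-like cells, at 145 and 157 CPM for Sdhc and 162 and 149 CPM for Sdhd. Of the compared classes, Sdhb was highest in astrocyte-like cells in both libraries, whereas Sdha was at 201 and 214 CPM in mural-like cells, below the astrocyte-like level in Mr1+/+ and above it in Mr1-/-.

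In complex III, Uqcr11 and Uqcrb, small subunits of the enzyme, had the most UMIs of the nuclear members. Uqcrb reached 714 and 708 CPM and Uqcr11 675 and 643 CPM in mural-like cells. Uqcr10 ranged from 635 and 635 CPM in mural-like to 154 and 156 CPM in microglia-like cells. The Rieske iron-sulphur subunit Uqcrfs1 was at 417 and 429 CPM in astrocyte-like cells. Uqcc2, an assembly factor, stood at 499 and 486 CPM in neuron-like and 337 and 364 CPM in endothelial-like cells.

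In complex IV, Cox8a, the nuclear member with the most UMIs, was at 2808 and 2818 CPM in mural-like cells. It stood at 1780 and 1967 CPM in astrocyte-like cells and at 524 and 588 CPM in microglia-like cells. Cox6c was at 1380 and 1394 CPM in mural-like and 262 and 263 CPM in microglia-like cells. Cox4i1, the common form of subunit IV, was highest in neuron-like cells, at 1595 and 1902 CPM. Cox7c was also highest there, at 1237 and 1403 CPM.

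In complex V, the c subunit forms the rotor ring and is made from 3 nuclear genes, Atp5g1, Atp5g2 and Atp5g3, which encode the same mature protein with different import signals. Their shares of c subunit UMIs differed by class. Atp5g3 gave 58.8% and 59.4% in astrocyte-like, 53.0% and 52.0% in neuron-like and 51.9% and 51.9% in mural-like cells. In microglia-like cells Atp5g2 led, with 50.1% and 51.9%, and Atp5g3 gave 32.1% and 30.6%. Atp5g2 also led in endothelial-like (46.3% and 44.4%) and oligodendrocyte-like cells (42.7% and 42.3%). Atp5g1 was never the leading gene, and its share was highest in oligodendrocyte-like cells, at 22.8% and 22.3%. The leading gene was the same in both libraries in all compared classes but the neuroblast-like, where Atp5g3 had 43.3% in Mr1+/+ and 37.0% in Mr1-/-. In CPM, Atp5g3 ran from 364 and 361 in microglia-like to 1478 and 1462 in mural-like and 1450 and 1592 in astrocyte-like cells.

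All 13 mitochondrial genes were measured in each library, and they differed in their high class. In complex IV, mt-Co1 was highest in oligodendrocyte-like cells (6123 and 6512 CPM) and mt-Co2 in mural-like cells (5860 and 6396 CPM). The mt-Co3 gene ran from 535 and 604 CPM in microglia-like to 1854 and 1981 CPM in mural-like cells. Cytochrome b, mt-Cytb, the mitochondrial subunit of complex III, was at 5329 and 5413 CPM in mural-like and 1522 and 1537 CPM in microglia-like cells. Among complex I genes, mt-Nd4l was close to level between mural-like (5474 and 5413 CPM) and astrocyte-like cells (5328 and 5636 CPM). Astrocyte-like cells had the highest mt-Nd2 (1450 and 1455 CPM). In the same class mt-Nd3 stood at 551 and 554 CPM. In mural-like cells mt-Nd4 stood at 1497 and 1505 CPM, and in oligodendrocyte-like cells mt-Nd1 stood at 829 and 875 CPM. The mt-Nd5 gene was at 478 and 404 CPM in astrocyte-like cells. The mt-Nd6 gene, the only one of the 13 on the other strand, was the least abundant, at 40.6 and 40.0 CPM in endothelial-like cells.

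The clearest class-restricted members were Ndufa4l2 and Cox4i2. Ndufa4l2 is a relative of the complex IV subunit Ndufa4, and Cox4i2 is the second form of subunit IV. Both are known as genes induced in low oxygen and as pericyte genes. Ndufa4l2 had 4910 and 4899 UMIs in mural-like cells, which were 98.8% and 98.8% of all its UMIs. Its level there was 1815 and 2009 CPM, while the mean of the next compared class, the neuroblast-like, was 25.1 CPM. All neuroblast-like UMIs of Ndufa4l2 came from 1 cell in each library, with 10 and 3 UMIs. A UMI of Ndufa4l2 was seen in 78.1% and 84.7% of mural-like cells, in 0.837% and 0.770% of endothelial-like cells and in 0.299% and 0.106% of oligodendrocyte-like cells. The median depth of a cell was 2446 and 2196 UMIs in mural-like, 2450 and 2310 in endothelial-like and 4481 and 4195 in oligodendrocyte-like cells, so mural-like cells were not the deeper ones. Fibroblast-like cells, with 29 and 32 cells, had 13 and 28 UMIs of Ndufa4l2, and their summed mural marker level was 3877 and 8040 CPM. The part of those mural markers in that value was not tested.

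Cox4i2 showed the same restriction. It had 3011 and 3009 UMIs in mural-like cells (98.0% and 98.6% of its total), at 1113 and 1234 CPM, against a mean of 17.5 CPM in the next class. Cells with a UMI made up 78.2% and 82.3% of mural-like cells. The common partners were not restricted: Ndufa4 was at 529 and 505 CPM in mural-like and 1163 and 1317 CPM in neuron-like cells, and Cox4i1 was at 1253 and 1256 CPM in mural-like cells.

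Set against their partners, Ndufa4l2 gave 77.4% (76.4 to 78.5) and 79.9% (78.9 to 80.9) of the UMIs of the Ndufa4l2 and Ndufa4 pair in mural-like cells. Cox4i2 gave 47.0% and 49.5% of its pair with Cox4i1. The mural-like clusters differed in both. In the cluster led by Kcnj8 and Vtn, Ndufa4l2 stood at 3712 and 3720 CPM and made up 98.5% and 98.7% of its pair, with a UMI in 98.0% and 98.6% of cells. Cox4i2 there stood at 2227 and 2105 CPM and 66.6% and 66.7% of its pair. In the cluster led by Tagln, Acta2 and Myh11, Ndufa4l2 stood at 634 and 762 CPM and 43.0% and 46.6% of its pair, and Cox4i2 at 412 and 579 CPM and 23.3% and 28.8%. The cluster with Steap4 was close to the first, at 2756 and 2598 CPM of Ndufa4l2, or 94.3% and 95.2% of its pair. Ndufa4 stood at 54.8 and 48.5 CPM in the cluster led by Kcnj8 and Vtn, at 166 and 132 CPM in the cluster with Steap4 and at 842 and 874 CPM in the contractile cluster.

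**Figure D3:**
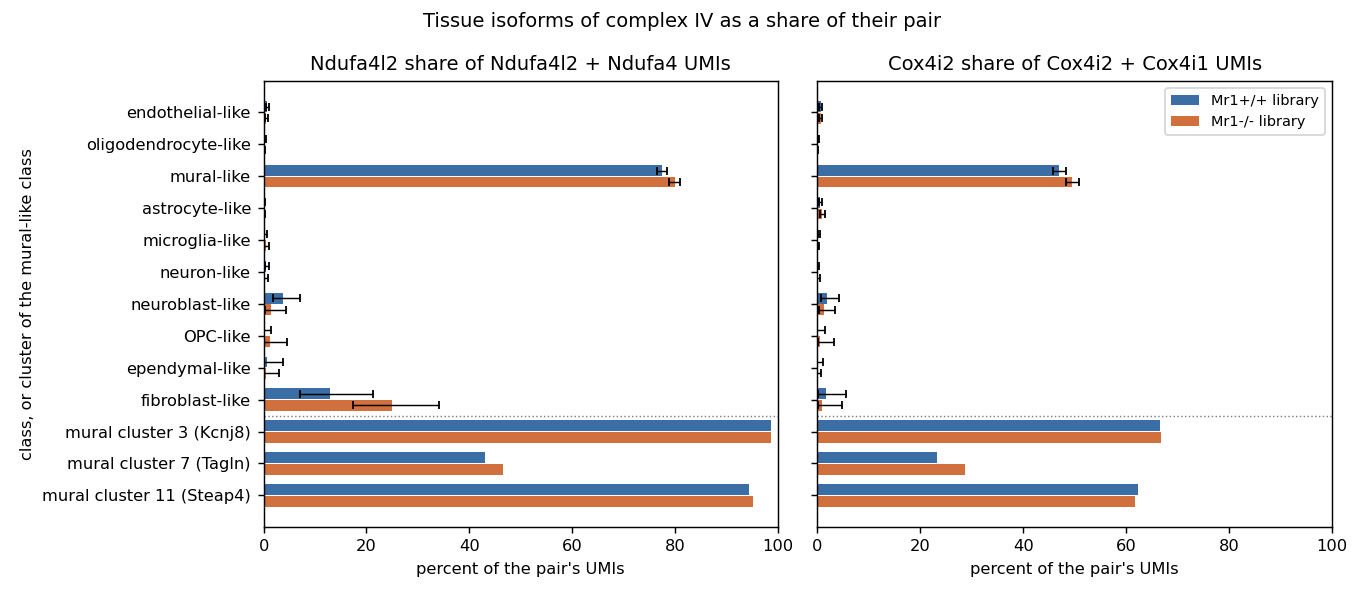
Share (percent of the pair's UMIs) of Ndufa4l2 beside Ndufa4 and of Cox4i2 beside Cox4i1 by class and by mural-like cluster, 1 bar per library. Exact 95% intervals are drawn for the classes and not for the clusters. Only mural-like cells rise above a few percent in both pairs, and fibroblast-like cells do so, at a lower share, for Ndufa4l2 alone. Within mural-like cells the cluster led by Tagln, Acta2 and Myh11 lies lowest.

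The other tissue forms were rare. Cox6a2, known as the heart and skeletal muscle form of subunit VIa, had 35 and 51 UMIs in 17 and 38 microglia-like cells, at 9.21 and 12.9 CPM. It had 0 UMIs in the other 6 compared classes. A count of 0 allows up to between 0.486 and 12.1 CPM there, the upper end being the small neuroblast-like class of Mr1-/-, which therefore cannot be set below the microglia-like level. Of the Mr1+/+ UMIs, 22 lay in the microglia-like cluster led by Tmem119, and 18 of these came from 1 cell. The cluster led by Ccl4 and Lyz2, genes of activated macrophages, had 13 and 47 UMIs, in 4.48% and 9.80% of its cells. Cox6a2 gave 5.64% and 7.24% of the pair with Cox6a1 in microglia-like cells. The gene lies on the minus strand at chr7:128205435-128206387 (mm10), inside the span of Itgad on the plus strand, and Itgad had 0 and 6 microglia-like UMIs. The counting is not stated to use strand, so reads of the 2 genes may not be separable.

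Cox6b2, the testis form of subunit VIb, had 105 and 42 UMIs in astrocyte-like cells and 21 and 22 in ependymal-like cells, where it made up 9.46% and 7.46% of its pair with Cox6b1. Cox7a1, the heart and muscle form of subunit VIIa, stood at 44.0 and 23.1 CPM in neuron-like cells and at 21.1 and 18.04 CPM in mural-like cells, far below its partner Cox7a2 (746 and 729 CPM in neuron-like cells). Cox7b2 had 4 and 1 UMIs and Cox8b 6 and 2 UMIs in astrocyte-like cells. Cox8c had 0 UMIs in both libraries.

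The second question of the design is how the members differed between Mr1-/- and Mr1+/+ cells of the same class. Nuclear members took a slightly larger share of UMIs in the Mr1-/- library in each of the 7 compared classes. The ratio of Mr1-/- to Mr1+/+ was 1.053 (1.043 to 1.062) in endothelial-like, 1.021 (1.013 to 1.028) in oligodendrocyte-like and 1.015 (1.007 to 1.024) in mural-like cells. It was 1.054 (1.043 to 1.065) in astrocyte-like, 1.044 (1.032 to 1.056) in microglia-like, 1.077 (1.060 to 1.093) in neuron-like and 1.073 (1.040 to 1.106) in neuroblast-like cells. All these intervals lay above 1, but they hold no spread between mice, and how far 2 libraries of 1 genotype differ was not measured. In the small classes the direction varied, with 0.985 (0.951 to 1.020) in oligodendrocyte precursor-like, 1.054 (1.026 to 1.082) in ependymal-like and 0.898 (0.858 to 0.940) in fibroblast-like cells. Summed over all kept cells the nuclear share was 2.93% and 2.92%, and the libraries hold the classes in different proportions.

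Mitochondrially encoded UMIs were also higher in Mr1-/- in every compared class at the settings used here. The ratios were 1.10 in endothelial-like, 1.08 in oligodendrocyte-like, 1.07 in mural-like, 1.06 in astrocyte-like, 1.08 in microglia-like, 1.12 in neuron-like and 1.09 in neuroblast-like cells. In 2 classes the direction turned with the processing. On the log2 scale the mural-like difference was -0.024 at a ceiling of 5% mitochondrial UMIs, against 0.10, and the neuron-like difference was -0.0027 with doublets kept and -0.023 with each cell weighing the same, against 0.17. Within the 14 named clusters that had at least 50 cells in each library, the ratio was above 1 in 13 for mitochondrial members and in 12 for nuclear members, with the interval above 1 in 13 and 10 of them. In the mural-like cluster led by Kcnj8 and Vtn, the nuclear ratio was 0.996 and the mitochondrial ratio 1.16. In the contractile cluster the ratios were 1.04 and 1.10.

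Single nuclear members mostly differed little. A gene was counted as lower at a Mr1-/- to Mr1+/+ ratio of at most 0.8 and as higher at the inverse of 0.8 or more, among genes with at least 50 UMIs over both libraries in the class. In endothelial-like cells 71 of 88 nuclear members had a ratio above 1, against 54.2% of all genes. There 1 was higher, against 10.7% of all genes, and 0 were lower, against 8.59%. In oligodendrocyte-like cells 53 of 88 lay above 1 (all genes 45.6%), 3 were higher (6.49%) and 0 lower (9.16%). In mural-like cells 56 of 91 lay above 1 (51.8%), and 0 were higher (10.9%) or lower (9.94%). In astrocyte-like cells 65 of 88 lay above 1 (46.0%), 1 was higher (9.38%) and 3 were lower (13.2%). In microglia-like cells 63 of 88 lay above 1 (43.1%), 2 were higher (6.43%) and 0 lower (9.87%). The members therefore leaned upward in number while few passed the fold in either direction.

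In neuron-like cells 59 of 86 nuclear members lay above 1 (44.3% of all genes), 7 were higher (11.0%) and 2 lower (18.4%). In neuroblast-like cells 46 of 72 lay above 1 (47.2%), 14 were higher (19.4%) and 0 lower (24.3%). The neuroblast-like count above 1 rested on the mitochondrial ceiling: at 20% it was 73 of 74. The median log2 ratio of nuclear members was 0.08 in endothelial-like cells (all genes 0.02), 0.06 in astrocyte-like (-0.02), 0.04 in microglia-like (-0.03), 0.02 in oligodendrocyte-like (-0.02), 0.02 in mural-like (0.01), 0.08 in neuron-like (-0.04) and 0.10 in neuroblast-like cells (-0.03). The members were far more abundant than the typical measured gene, with a median of 1749 against 247 UMIs in endothelial-like and 744.5 against 115 in neuron-like cells, so their ratios carry less counting error. Shares of genes past the fold, and shares above 1, are therefore not like for like between the members and all genes. Marker genes of other classes differed between the libraries in the smaller classes. In neuroblast-like cells the oligodendrocyte markers summed to 1911 and 92.6 CPM, the endothelial markers to 316 and 8.05 CPM and the neuron markers to 4362 and 3480 CPM. In neuron-like cells the mural markers summed to 441 and 58.5 CPM and the microglia markers to 297 and 52.3 CPM. Their part in the ratios was not tested.

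**Figure D4:**
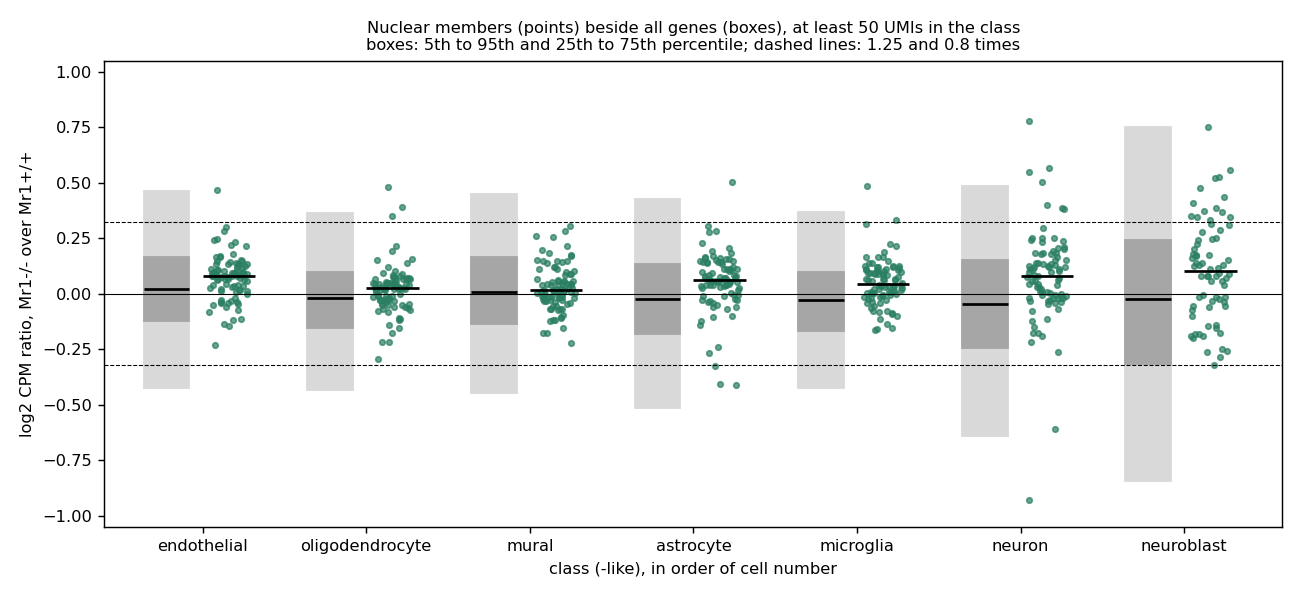
Ratio of Mr1-/- to Mr1+/+ CPM (log2, vertical axis) for each measured nuclear member (points) in 7 classes, beside the 5th to 95th and 25th to 75th percentiles of all measured genes (bars). Most members lie close to 0, within the 5th to 95th percentile of all genes, with medians from 0.02 to 0.10.

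Counts by complex are given for the 5 large classes, those with at least 200 cells in each library. Among these, the share of nuclear members above 1 was largest for complex IV in endothelial-like cells, at 13 of 13. It was 10 of 13 in oligodendrocyte-like, 11 of 16 in mural-like, 11 of 13 in astrocyte-like and 9 of 13 in microglia-like cells. For complex I it was 36, 27, 29, 31 and 30 of 44 in the same order of classes. For complex V it was 12, 9, 8, 14 and 13 of 16. Complex III gave 8, 5, 5, 8 and 9 of 11. The 4 subunits of complex II gave 2, 2, 3, 1 and 2. The 11 assembly factors gave 7, 5, 7, 5 and 6. Of all genes, 54.2%, 45.6%, 51.8%, 46.0% and 43.1% lay above 1 in the same order of classes. Some counts stood near that share, such as 5 of 11 for complex III in oligodendrocyte-like and 8 of 16 for complex V in mural-like cells. The counts by complex were not tested against each other.

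Of the members measured in all 5 large classes, 22 of 100 lay above 1 in every one, and 15 of these were nuclear. Of the 6079 genes measured in all 5, 5.49% did so, again with fewer UMIs behind the typical gene. Below 1 in all 5 lay 1 member, mt-Atp6, against 7.01% of genes. The nuclear members above 1 in all 5 included the complex V subunits Atp5c1, Atp5e, Atp5k, Atp5l and Atp5o. Also among them were the complex I subunits Ndufa2, Ndufa3, Ndufa6, Ndufa13, Ndufb9, Ndufc1 and Ndufc2, and the complex IV subunits Cox4i1, Cox6c and Cox7c. Atp5k, the e subunit that holds ATP synthase dimers together and whose promoter window is printed above, had the largest differences among these nuclear members. It stood at 447 and 768 CPM in neuron-like cells, a ratio of 1.72 (1.51 to 1.95). The astrocyte-like levels were 384 and 475 CPM (1.23; 1.12 to 1.36) and the microglia-like levels 109 and 136 CPM (1.24; 1.09 to 1.42). In oligodendrocyte-like, mural-like and endothelial-like cells Atp5k stood at 282 and 323, 437 and 483, and 271 and 298 CPM. It was higher in Mr1-/- in all 7 compared classes, by the most in neuron-like cells.

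Ndufa1, a small subunit of the complex I membrane arm, was at 113 and 142 CPM in microglia-like cells (1.26; 1.11 to 1.43). Its ratio was 0.959 in astrocyte-like cells. Ndufa5, an accessory subunit, was at 237 and 288 CPM in endothelial-like cells (1.22; 1.11 to 1.33). Among astrocyte-like cells, the assembly factor Ndufaf8 was at 56.9 and 80.6 CPM (1.42; 1.11 to 1.80) and Ndufaf4 at 122 and 97.6 CPM (0.798; 0.654 to 0.971). The 2 assembly factors thus lay on opposite sides of 1. The complex III assembly factor Uqcc1 had 138 and 50 UMIs in astrocyte-like cells, a ratio of 0.752.

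In oligodendrocyte-like cells Uqcrc1, a core protein of complex III, was at 201 and 173 CPM (0.859; 0.783 to 0.942). Sdhc was at 65.8 and 76.5 CPM (1.16; 1.001 to 1.35). In mural-like cells Ndufa10, an accessory subunit of complex I, was at 145 and 169 CPM (1.16; 1.01 to 1.34). Most of these intervals reached close to 1, and no member in mural-like cells passed the fold. In neuron-like cells Atp5b, the catalytic beta subunit of ATP synthase, was at 329 and 431 CPM (1.31), and Cox7a1 had 47 and 15 UMIs (0.525; 0.273 to 0.955).

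Another 94 genes of the pathway were counted as lists. They cover cytochrome c, assembly factors, mitochondrial transcription, nuclear regulators, oxygen-related genes, the citric acid cycle, carriers and related groups. Ratios above 1 were found for 47 of 79 in endothelial-like (all genes 54.2%), 43 of 85 in oligodendrocyte-like (45.6%) and 37 of 80 in mural-like cells (51.8%). In astrocyte-like cells it was 47 of 82 (46.0%) and in microglia-like cells 41 of 82 (43.1%). By the same folds 5, 5, 5, 7 and 3 were higher in that order (all genes 10.7%, 6.49%, 10.9%, 9.38% and 6.43%). Lower were 5, 3, 6, 4 and 6 (8.59%, 9.16%, 9.94%, 13.2% and 9.87%). The median log2 ratios of the listed genes were 0.05, 0.01, -0.01, 0.03 and -0.0049 in that order. The citric acid cycle list had 7 of 15 above 1 in endothelial-like (all genes 54.2%), 8 of 15 in mural-like (51.8%) and 8 of 15 in astrocyte-like cells (46.0%). The 10 oxygen-related genes set beside Ndufa4l2 and Cox4i2 had 1 of 6 above 1 in mural-like cells (all genes 51.8%). This list includes regulators such as Hif1a and Epas1, so the count is not a measure of low oxygen. In the same class Ndufa4l2 had a ratio of 1.11 (1.06 to 1.15) and Cox4i2 of 1.11 (1.05 to 1.17). These 2 ratios mix clusters: both genes were higher in Mr1-/- in the contractile cluster, whereas in the cluster with Steap4 Ndufa4l2 was at 2756 and 2598 CPM and Cox4i2 at 1718 and 1653 CPM. In the cluster led by Kcnj8 and Vtn they were at 3712 and 3720 CPM and at 2227 and 2105 CPM. The 3 clusters held 409 and 357 contractile cells, 441 and 493 cells led by Kcnj8 and Vtn and 115 and 121 cells of the cluster with Steap4.

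Among the measured members, the largest difference between the libraries lay in the pair of overlapping mitochondrial genes. The mt-Atp6 gene was at 2900 and 1278 CPM in endothelial-like, 3986 and 1818 in oligodendrocyte-like, 4315 and 1943 in mural-like, 3812 and 1459 in astrocyte-like and 1074 and 541 CPM in microglia-like cells. Its neighbour mt-Atp8 was at 3755 and 6548, 5304 and 8844, 5675 and 9348, 5059 and 8566, and 1285 and 2134 CPM in the same classes. The first was lower and the second higher in Mr1-/- in all 7 compared classes. The ratio of mt-Atp6 ran from 0.383 in astrocyte-like to 0.504 in microglia-like cells, and that of mt-Atp8 from 1.65 in mural-like to 1.74 in endothelial-like cells.

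Over all kept cells mt-Atp6 had 67689 and 23245 UMIs and mt-Atp8 had 88774 and 114063. As a share of the pair, mt-Atp6 gave 43.3% (43.0 to 43.5) in Mr1+/+ and 16.9% (16.7 to 17.1) in Mr1-/-. By class the share was 39.7% to 48.7% in Mr1+/+ and 14.2% to 21.1% in Mr1-/-, over all 10 named classes, so the ranges did not overlap. The sum of the pair differed much less: its ratio was 1.09 over all kept cells and 1.13 to 1.19 in the compared classes, against 1.01 and 1.03 to 1.10 for the other 11 mitochondrial genes together. The other overlapping mitochondrial genes, mt-Nd4l and mt-Nd4, share 7 bases (chrM:10167-10173). Over all kept cells they showed no such change, with mt-Nd4 at 19.9% and 19.7% of their pair. By class it moved both ways, at 19.0% and 16.6% in astrocyte-like, 18.2% and 14.6% in neuroblast-like and 16.5% and 21.8% in oligodendrocyte precursor-like cells. How reads over the bases shared by mt-Atp8 and mt-Atp6 were assigned was not stated in any label or header used here. The cause of the difference was not tested.

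Among the other mitochondrial genes, mt-Co2 lay above 1 in all 7 classes, with ratios of 1.06 to 1.10, as did mt-Co3 (1.02 to 1.13) and mt-Nd2 (1.003 to 1.19). In astrocyte-like cells mt-Nd5 was at 0.845 (0.766 to 0.930) and mt-Nd4 at 0.896, whereas in endothelial-like cells mt-Nd5 was at 1.10. With mt-Atp6 and mt-Atp8 left out, the log2 ratio of the mitochondrial share was 0.10 in endothelial-like, 0.09 in oligodendrocyte-like, 0.07 in mural-like, 0.04 in astrocyte-like and 0.08 in microglia-like cells, below the values with the pair (0.14, 0.12, 0.10, 0.08 and 0.11).

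**Figure D5:**
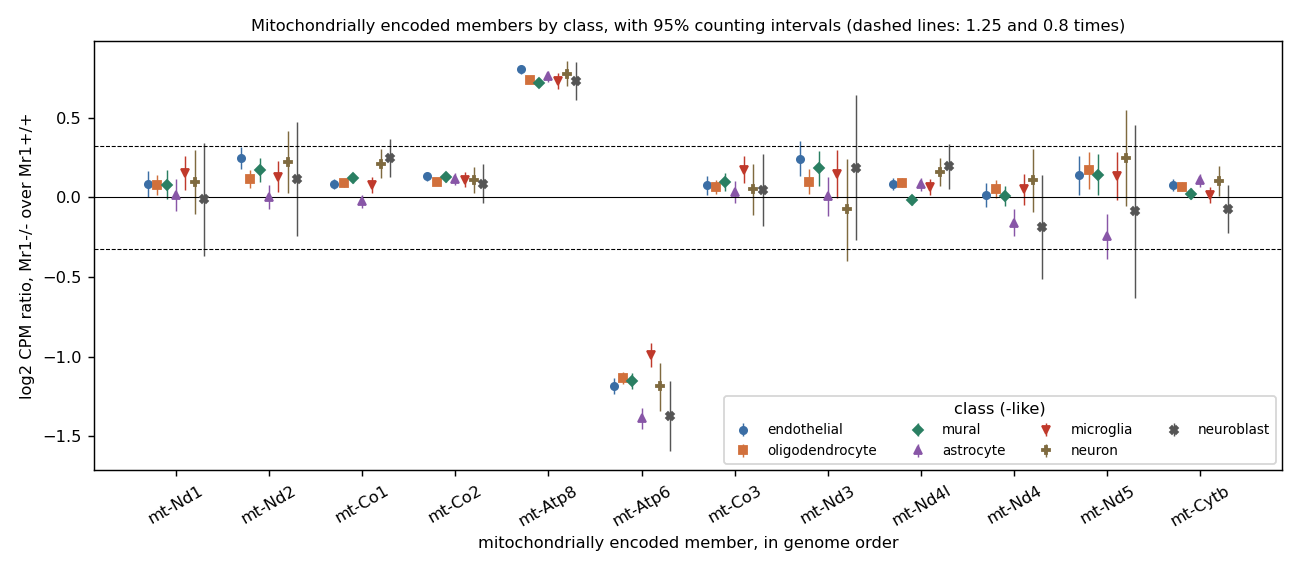
Ratio of Mr1-/- to Mr1+/+ CPM (log2, vertical axis) for 12 mitochondrial genes in 7 classes, with exact 95% counting intervals. The mt-Nd6 gene is left out because it had few UMIs. The mt-Atp8 points lie near 0.72 to 0.80 and the mt-Atp6 points near -0.99 to -1.39, while the other genes lie close to 0.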

How the data were processed

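The deposited values are unnormalized UMI counts for each gene in each barcode. Per the matrix header they were made with Cell Ranger 3.1.0, whereas the submitters' processing notes name Cell Ranger 5.1.0, STAR and the mm10 build. No source used here gives the annotation release or says whether counting used strand. CPM, percent shares, ratios and log2 ratios were computed here from the deposited counts.

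Kept cells had 300 or more detected genes and no more than 10% mitochondrial UMIs, and Scrublet (expected rate 0.05) removed 335 and 171 cells. Cells were scaled to a total of 10000 UMIs, and 2000 variable genes, 30 principal components and 15 neighbours gave Leiden clusters at resolution 1.0 (seed 7). A cluster was named when at least 3 markers were each detected in at least 10% of its cells and its 10 leading genes did not go against the name. Unnamed clusters (191 and 63 cells) entered no class. UMIs were summed per class and library. With 1 library per genotype no test was made. Intervals are exact 95% Poisson, Clopper-Pearson or conditional binomial intervals. Only the conditional binomial intervals of ratios were run on simulated counts. Those counts were drawn without spread between cells, as the interval assumes, so the run checks the calculation and not the fit to real cells.

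Genes named are all mitochondrial genes, tissue forms with their partners, c subunit and complex II genes, the 3 members with the most UMIs in each complex, members at least 2 times higher in 1 class, and in each of the 5 large classes the 3 highest and 3 lowest ratios among members with at least 200 UMIs. One result that this rule names is not reported here. Members, lists and markers were chosen with earlier results of these data known. Alternatives changed the mitochondrial ceiling (5% or 20%), doublet removal, scaling, UMI minimum, weighting and thinning of cells, and the genes used in clustering. Restriction to cells with at least 1500 UMIs and leaving out mt-Atp6 and mt-Atp8 were added after seeing the data. Positions come from GENCODE M21 (mm10) and promoters from RefSeq GRCm38.p6. Clustering used scanpy 1.11.5 on anndata 0.12.19 with leidenalg 0.10.2 and scikit-learn 1.9.0. Tables and intervals used pandas 2.3.3, SciPy 1.17.1 and NumPy 2.4.6. Figures were drawn in matplotlib 3.10.9, all under Python 3.11.15.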

Additional observations from a re-analysis of the deposited data

How the results depend on the processing

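The log2 ratio of the mitochondrial share (Mr1-/- over Mr1+/+) moved most. With a ceiling of 20% it was 0.118 in endothelial-like, 0.106 in oligodendrocyte-like, 0.034 in neuron-like and 0.284 in neuroblast-like cells. At 5% it was 0.091 in oligodendrocyte-like, -0.024 in mural-like, 0.025 in astrocyte-like, 0.119 in neuron-like and 0.187 in neuroblast-like cells. With doublets kept it was -0.0027 in neuron-like and 0.190 in neuroblast-like cells. With each cell weighing the same it was 0.105 in oligodendrocyte-like, 0.050 in astrocyte-like, 0.041 in microglia-like and -0.023 in neuron-like cells. Thinned to 1500 UMIs it was 0.124 in mural-like, 0.060 in astrocyte-like, 0.097 in neuron-like and 0.178 in neuroblast-like cells, and with cells of at least 1500 UMIs only it was 0.119 in mural-like cells. Without mt-Atp6 and mt-Atp8 it was 0.103 in endothelial-like, 0.087 in oligodendrocyte-like, 0.073 in mural-like, 0.043 in astrocyte-like and 0.084 in microglia-like cells. The number of nuclear members above 1 in neuroblast-like cells was 73 of 74 at 20%, 26 of 46 after thinning and 18 of 31 with at least 200 UMIs. The fold of nuclear members from the lowest to the highest class in Mr1+/+ was 2.67 at 5%, 2.68 with doublets kept and 2.80 with mitochondrial UMIs left out of the total, and in Mr1-/- 2.61 with each cell weighing the same and 2.73 without mitochondrial UMIs. The Ndufa4l2 share of its pair in mural-like cells was 85.1% and 89.2% at 5%, 85.8% and 87.4% with each cell weighing the same, 83.3% and 83.8% after thinning and 75.8% and 77.3% with cells of at least 1500 UMIs. For Cox4i2 it was 52.8% and 57.8% at 5%, 53.6% and 54.9% with each cell weighing the same, and 51.3% and 52.9% after thinning. The cause of these shifts was not tested. Clustering without the members moved none of these results, and median-of-ratios scaling, run for the counts of members above 1, moved none of those.

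No paired analysis was possible because each genotype has 1 library. Depth limits the neuron-like and neuroblast-like classes and the rare tissue forms most, and a difference between genotypes has no replicate check.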
